A study of Danio rerio with 3 samples.

Results

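Gene expression under a high cholesterol diet (HCD) was read in zebrafish larvae, in RNA labelled as liver, from 1 array of larvae on the HCD set against 1 array of larvae on the control diet, across every gene that both arrays could compare. A gene entered if its probe carried no outlier mark from the scanner software and its signal stood well above background in either group or in both. This left 24573 of the 28287 genes on the array. The HCD larvae received 180 mg of the larval feed AP100 plus 4% cholesterol each day, whereas the same number of control larvae received 30 mg of AP100, so the groups differed in the amount of feed as well as in cholesterol. Both groups were larvae of the AB wild-type strain, fed from 5 days post-fertilization (dpf) for 10 days and taken at 15 dpf. A further array came from larvae on the HCD that also received berberine (BBR) at 5 μM; it played no part in the choice of genes and is given beside some of them. Each group had 1 array, and the number of livers behind each array is not given in the sources used here. The differences below therefore cannot be set against a spread between replicates, and none carries a P value.

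Cholesterol in an animal cell is made from acetyl-CoA through mevalonate, squalene, and lanosterol, and the genes of these enzymes are switched on by SREBP2 when the sterols of the endoplasmic reticulum run low. Excess cholesterol is esterified into lipid droplets, exported by ABC transporters, or oxidised to oxysterols that activate the receptor LXR. The liver also makes lipoproteins, bile acids, complement, and acute phase proteins, and its resident macrophages respond to lipid and to microbes with cytokines, nitric oxide, and oxygen radicals.

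The values are processed intensities, which are background-subtracted brightness values without a unit, and differences are on the log2 scale after each array's 75th percentile was subtracted. A positive log2 difference means higher on the HCD array, and 1 log2 unit is 2-fold, the threshold at which a gene is said here to have risen or fallen. The 75th percentile was 2024 on the HCD array and 2009.8 on the control array, so this step moved the difference by 0.010. Probes of one gene disagreed with an SD of 0.33 log2 units. No other array of this series lay on the slide of the HCD array. The control array lay on another slide together with the BBR array, so diet and slide cannot be told apart in any value below.

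Of the 24573 genes, 907 (3.69%) were at least 2-fold higher and 1000 (4.07%) at least 2-fold lower on the HCD array, together 1907 (7.76%). The shares of 3.69% and 4.07% are those against which the count of each list below is to be read. Gene names could be given to 512 of the higher and 369 of the lower genes. The large changes were mostly upward. At 4-fold, 132 genes were higher and 56 lower, and at 8-fold, 35 were higher and 7 lower. How many genes pass depends on the processing, as given below. A gene well above background on 1 array only gives a lower bound, so it can be counted short of its fold. Such bounds were 56 of the higher and 171 of the lower genes, so they limit the counts of large falls more often. The genes that fell were dim, with a median intensity of 61.5 on the HCD array and 149.5 on the control array, while the genes that rose had medians of 926 on the HCD array and 303 on the control array. Over all genes the median log2 difference was −0.16, with quartiles of −0.47 and 0.19, and 72.7% of genes lay within 1.5-fold.

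The difference depended on brightness. The genes measured on both arrays were split into 5 equal groups by brightness. The dimmest group had a median of −0.36, and the following groups had −0.25, −0.12, −0.03, and −0.07. The dimmest group held 128 genes that rose and 397 that fell, and the brightest group held 85 that rose and 38 that fell. With cyclic loess, which removes such a trend, the counts became 1215 higher and 496 lower, and the share of called genes that were higher moved to 71.0%, against 47.6% with the 75th percentile. It was 69.1% with quantile normalization, 66.1% with normexp background correction, and 60.1% with the median of each array.

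**Figure D1:**
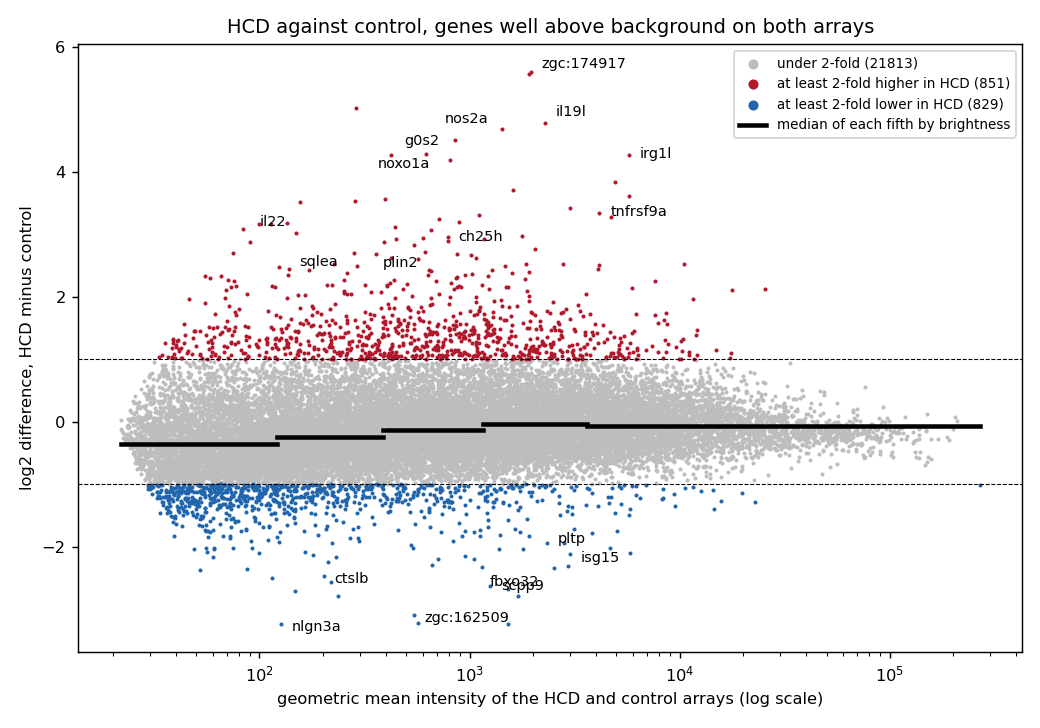
Each point is 1 of the genes well above background on both arrays, with the geometric mean of its HCD and control intensities (log axis) against its log2 difference, HCD minus control. Red points (851) rose and blue points (829) fell at least 2-fold, the dashed lines mark 2-fold, and the black bars are the medians of 5 equal groups by brightness, which lie between −0.36 in the dimmest and −0.03 in the second brightest.

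The liver label was set against marker genes of hepatocytes and of other tissues. All 26 measured hepatocyte markers were well above background on both arrays, and none passed 2-fold. Their median difference was 0.01. The liver fatty acid binding protein fabp10a read 49183 on the HCD array and 51272 on the control array, and transferrin (tfa) read 28294 in HCD and 22102 in control. Markers of tissues outside the liver were also bright on both. The pancreatic trypsin prss1 read 111592 in HCD and 118162 in control, the muscle creatine kinase ckma 55954 in HCD and 64239 in control, the skin keratin krt4 39593 in HCD and 43851 in control, the intestinal fabp2 52684 in HCD and 53666 in control, and the rod photopigment rho 43696 in HCD and 40703 in control. The RNA labelled as liver thus held transcripts of pancreas, muscle, skin, gut, and eye in both groups. How much tissue around the liver was taken for the arrays is not given in the sources used here, so no difference below can be placed in the liver alone.

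None of the 23 exocrine pancreas, 12 endocrine pancreas, 26 muscle, 12 kidney, 8 biliary, or 7 adipocyte markers passed 2-fold, and their medians lay between −0.33 and 0.12. Of 16 intestinal markers agr2 rose (1.28), of 22 skin markers krt95 fell (−1.01, but −0.93 with cyclic loess), of 17 bone and cartilage markers col8a1a rose (1.02), and of 18 markers of lens, retina, and neurons the lens crystallin cryba1a fell (−1.81). Of 17 macrophage markers 6 rose and none fell, with a median of 0.65 and a summed intensity of 86021 on the HCD array against 50010 on the control array. Of 19 erythrocyte markers 5 rose and none fell (median 0.48, sums 155922 in HCD and 107643 in control), of 16 general leukocyte markers 2 rose (median 0.46, sums 79050.0 in HCD and 57187 in control), and of 8 neutrophil markers mpx rose and csf3r fell (median 0.35), although mpx stood at −0.89, on another probe, when outlier spots were kept. In RNA of a whole tissue, more cells of a type and more RNA per cell cannot be told apart.

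**Figure D2:**
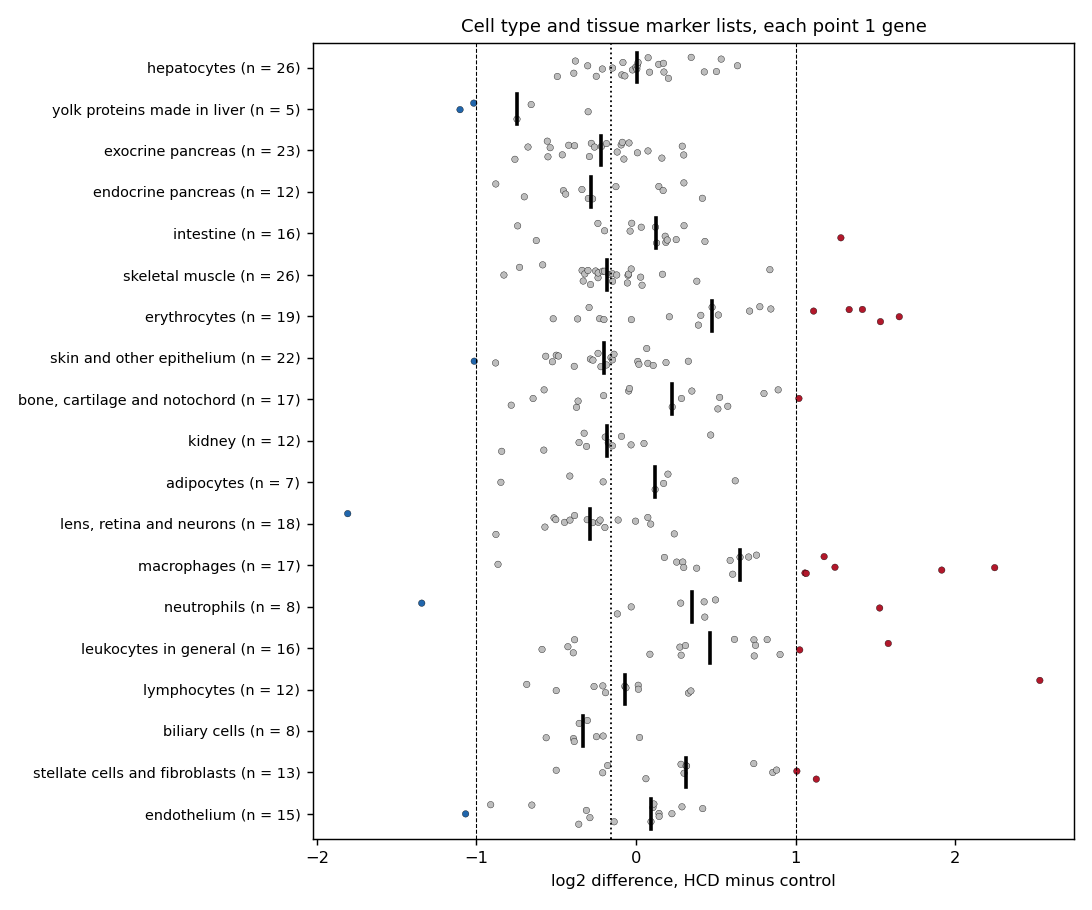
Each point is 1 marker gene, with its log2 difference (HCD minus control) on the horizontal axis and its list on the vertical axis; black ticks are list medians, the dotted line is the median of all genes (−0.16), and the dashed lines mark 2-fold. Hepatocyte, pancreas, and muscle markers lie between the dashed lines, and 6 of 17 macrophage and 5 of 19 erythrocyte markers lie to the right of them (red).

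Genes with a gene name that were well above background on both arrays were ranked by their rise, and the first 12 are given here. Genes without a name were not ranked, and 35 of all compared genes were at least 8-fold higher. Of the 12, il19l, nos2a, irg1l, noxo1a, tnfrsf9a, and il22 act in immune defence, g0s2 acts on stored fat, and 3 are uncharacterised. The highest difference among them was that of zgc:174917, an uncharacterised gene, which read 13676 on the HCD array and 279 on the control array (48.6-fold). The interleukin-10 family gene il19l read 12029.7 in HCD and 434 in control (27.5-fold). The inducible nitric oxide synthase nos2a read 7300.2 in HCD and 281 in control (25.8-fold, with log2 differences of 1.28 to 4.69 over its 3 probes). All 3 genes lay below the median of the compared genes on the control array (593) and above the 75th percentile of the HCD array. The lipase inhibitor g0s2, which holds back the breakdown of triglyceride, read 4074 in HCD and 178 in control (22.8-fold). The gene irg1l, whose mammalian counterpart makes itaconate in activated macrophages, read 25369.8 in HCD and 1300.2 in control (19.4-fold), and both of its probes were past 2-fold. The oxidase organiser noxo1a, which assembles the superoxide-producing NADPH oxidase, read 3446 in HCD and 189 in control (18.1-fold).

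Further down the same ranking stood the costimulatory receptor tnfrsf9a (13278 on the HCD array and 1296 on the control array, 10.2-fold), the sulfotransferase sult5a1 (14760.1 in HCD and 1504 in control, 9.74-fold), and the oxoglutarate receptor oxgr1a.1 (531 in HCD and 45.8 in control, a log2 difference of 3.52). The uncharacterised genes si:ch211-266a5.12 and si:dkey-9i23.6 stood at log2 differences of 3.71 and 3.18. Interleukin 22, which acts on epithelial cells, closed the first 12 with 426 in HCD and 52.2 in control (8.1-fold). On the BBR array, zgc:174917 read 11624, nos2a 5095, irg1l 25604, g0s2 2042, and il22 189.9. Genes well above background on the HCD array but not on the control array give only a bound. They included il17a/f2, at least 4.46-fold higher, the germ cell factor tbpl2, at least 3.45-fold, and zgc:153642, at least 5.04-fold. The class II gene mhc2d8.35b2 was at least 22.4-fold higher on one probe while its other probe stood at −0.89, so this gene has no settled direction. Among named genes with 3 or more probes that all passed 2-fold, the change was best covered in 5. They were noxo1a, ch25h, zgc:172065, the ketone body enzyme oxct1b (3.31-fold), and the nuclear import factor kpna2 (2.95-fold).

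**Figure D3:**
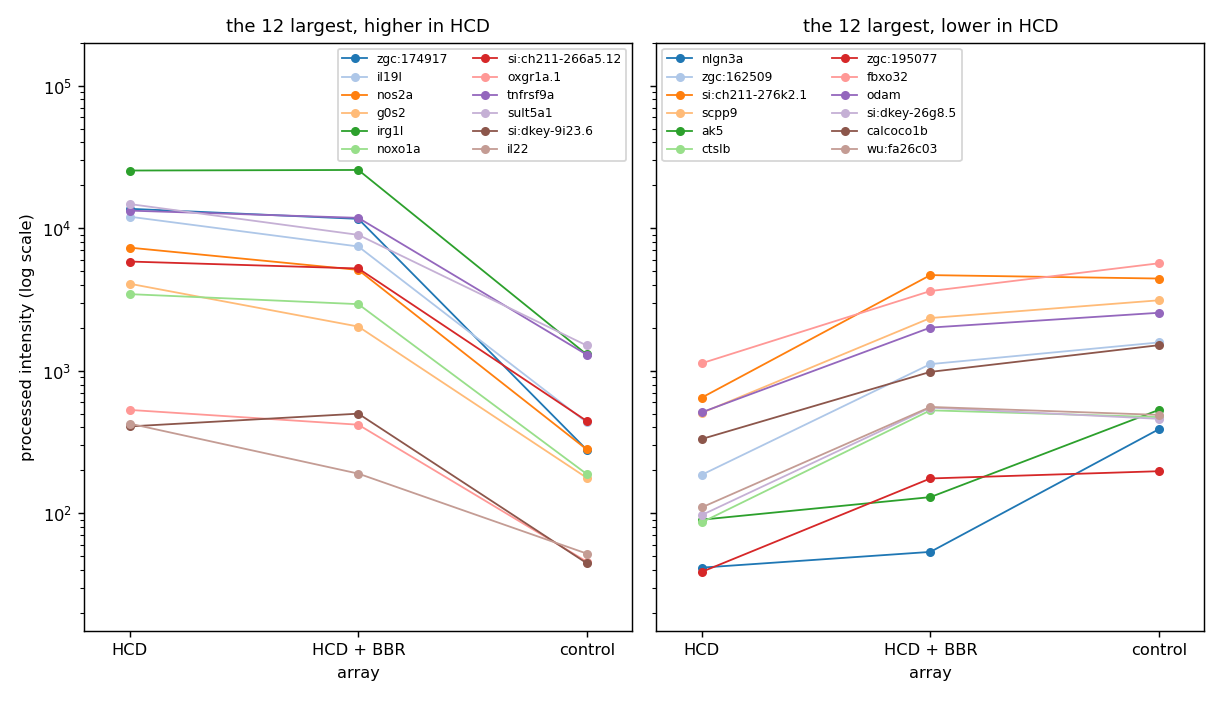
Processed intensity (log axis) of the 12 genes with the largest difference in each direction, among named genes well above background on the HCD and control arrays. Lines join the arrays of HCD larvae, HCD larvae with BBR, and control larvae, with 1 array each. The 12 higher genes read between 407 and 25370 on the HCD array and between 44.7 and 1504 on the control array, and the genes were chosen for the gap between these 2 arrays, so a comparison of the BBR array with either one also rests on that choice.

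Of 32 measured genes for cytokines, serum amyloid, and acute phase effectors, 7 rose and 1 fell, with a median of 0.31. Besides nos2a, noxo1a, and il22, the genes that rose were tnfb (2148 on the HCD array and 534 on the control array), the acute phase protein saa (1308 in HCD and 328 in control), the prostaglandin synthase ptgs2b (3829.6 in HCD and 1609 in control), and il1b (634 in HCD and 291 in control). On its brightest probe, each differed between 2.16-fold and 4.0-fold. The other probe of il1b stood at a log2 difference of 3.285 and that of tnfb at 2.593, so the size of these rises is not settled. The response was uneven among classical inflammation genes. The other tumour necrosis factor gene, tnfa, read 5267 in HCD and 6175 in control (−0.24), the matrix protease mmp9 read 1078 in HCD and 758 in control (0.50), and il6 fell by 1.06 at intensities of 27.1 in HCD and 55.9 in control, a call that is lost with cyclic loess (−0.73). Among 22 genes of the NF-kappaB and STAT3 pathways 4 rose and none fell (median 0.32). They were the feedback inhibitor socs3b (3.01-fold, with 2 of 3 probes past 2-fold), the liver factor cebpb (2.46-fold), nfkbie (2.35-fold, with its other probe at 0.81), and traf1 (2.25-fold). The paralog socs3a was brighter and read 9016 in HCD and 11333.5 in control (−0.34). The relatives of nfkbie, nfkbiaa and nfkbiab, stood at 0.28 and 0.01.

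Further genes of the mucosal cytokine families of il22 and il17a/f2 were higher in HCD larvae. They were chosen after their values were seen. The array read 474 in HCD and 103 in control larvae for il17c, 166 in HCD and 34.6 in control for il26, and 2125 in HCD and 594 in control for il22ra2, the decoy receptor of interleukin 22. The chemokines ccl20a.3 (25326 in HCD and 4382 in control) and ccl20b (6704 in HCD and 1151 in control), which draw lymphocytes to mucosal surfaces in mammals, were 5.74-fold and 5.78-fold higher. The oxidase activator noxa1, partner of noxo1a, was 7.61-fold higher (1235 in HCD and 161 in control), and cyba, the membrane subunit of the same oxidases, was 2.99-fold higher (13749 in HCD and 4563 in control). The epithelial factor ehf read 4491 in HCD and 773 in control (5.77-fold).

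Interferon genes split in direction. Of 27 measured members 2 rose (7.41%, against 3.69% of all genes) and 7 fell (25.9%, against 4.07%). The median (−0.02) lay close to that of all genes. The genes that rose were irf1a (1429.9 on the HCD array and 279 on the control array, 5.09-fold) and gbp1 (1776 in HCD and 377 in control, 4.68-fold), which respond chiefly to interferon gamma in mammals. Among the genes that fell were antiviral genes of the type I response. The ubiquitin-like isg15 read 1444 in HCD and 6241 in control (−2.12), and mxe read 37.3 in HCD and 149.8 in control (−2.02). The signal factor stat1b also fell, with 1701 in HCD and 3618 in control (−1.10, with its other probe at −0.75). The antiviral enzyme rsad2 (viperin) read 190.3 on the control array and was not well above background on the HCD array, at least 9.81-fold lower, and ifit8 and mxb were at least 12-fold and 3.99-fold lower in the same way. The 7 lower calls also stood with cyclic loess. The paralog mxa did not pass (158 in HCD and 148 in control, 0.09), nor did irf7 (0.69). On the BBR array, isg15 read 8525, stat1b 7788, mxe 302, and mxb 177 (77.4 in control), all above their control readings. On the same array rsad2 read 128 and ifit8 104 (232 in control), both below their control readings.

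Antigen processing was higher in HCD larvae in 19 of 22 measured genes, of which 5 rose and none fell (median 0.63). They were the immunoproteasome subunits psmb13a (1284 on the HCD array and 346 on the control array, 3.69-fold), psmb9a (5417 in HCD and 1532 in control, 3.51-fold), and psmb12 (3702 in HCD and 1126 in control, 3.26-fold), the peptide transporter tap2a (2.54-fold), and the proteasome activator psme2 (2.32-fold). The light chain b2m read 16384 in HCD and 9498 in control (0.78). These 3 subunits were also the only ones of 43 proteasome genes to pass, although all 43 were above 0 (median 0.32). Of 38 complement and coagulation genes 9 rose and none fell (median 0.43). Of the 4 called members with several probes, 2 had all of their probes above 0. The complement regulators cfhl1 (1049.8 in HCD and 169 in control, 6.17-fold) and cfh (2.32-fold), complement factor B (cfb, 11642 in HCD and 5304 in control, 2.18-fold), c3a.2 (2.13-fold), and clotting factor f9a (2.86-fold) were among them, whereas prothrombin (f2, −0.21) and fibrinogen alpha (fga, 0.06) were not. The related genes cfh and cfhl1 lie next to each other, and whether they are separate measurements is not known.

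Macrophage markers moved with these immune genes. The factor irf8, which macrophages need to form, read 1518 on the HCD array and 317 on the control array (4.75-fold), the perforin-like mpeg1.2 4860.1 in HCD and 1279 in control (3.77-fold), the lysozyme lygl1 13614 in HCD and 5696 in control (2.37-fold), and mfap4.1 8491 in HCD and 3725 in control (2.26-fold). The defining markers mpeg1.1 (2297 in HCD and 1499 in control, 0.61) and csf1ra (91 in HCD and 75.8 in control, 0.26) did not reach 2-fold. The general leukocyte markers lcp1 and coro1a stood at 0.62 and 0.75. Of 12 lymphocyte markers 1 rose, the killer cell gene nkl.4 (544 in HCD and 93.6 in control, 5.78-fold), while lck and zap70 stood at 0.01 and 0.33. The part of these cells in the immune differences was not tested.

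The mitosis list held more genes that rose than any other list used here. Of its 70 measured genes 45 rose (64.3%, against 3.69% of all genes) and none fell, with a median of 1.23, and the count was 51 with cyclic loess. Cyclin A2 (ccna2) read 1240.2 on the HCD array and 337 on the control array (3.66-fold, although 1 of its 3 probes stood at −0.25), the proliferation antigen mki67 5349 in HCD and 1695 in control (3.13-fold), and the mitotic kinase cdk1 2334 in HCD and 828 in control (2.8-fold). The cyclin ccnb1, the polo kinase plk1, and the chromosome passenger kinase aurkb were 2.64-fold, 2.56-fold, and 2.5-fold higher. The range of the members was −0.64 to 1.87, so this was a broad change of moderate size in contrast to the few large changes of the immune genes. Of the 31 called members with several probes, 22 had all of their probes above 0 and 12 had all of them past 2-fold. With the probes of each gene averaged, the list median was 0.95.

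Replication genes followed with 23 of 54 higher and none lower (median 0.90, or 0.63 with the probes of each gene averaged). Of the 13 called members with several probes, 8 had all of their probes above 0 and 4 had all of them past 2-fold. The helicase subunit mcm3 read 1459 in HCD and 351 in control (4.13-fold), its partner mcm5 4077 in HCD and 1456 in control (2.78-fold), the deoxycytidine kinase dck 2930.4 in HCD and 813 in control (3.58-fold), and thymidylate synthase (tyms) 2376 in HCD and 973 in control (2.42-fold). The sliding clamp pcna, at 6725 in HCD and 4766 in control, was only 1.4-fold higher. In DNA repair, 8 of 44 genes rose (18.2%, against 3.69% of all genes) and 2 fell (4.5%, against 4.07%), with a median of 0.39. The helicase pif1 and the Fanconi gene fancc were at least 3.29-fold and 3.24-fold higher, the primase primpol read 1004 in HCD and 377 in control (2.65-fold), rad54l 239.7 in HCD and 94 in control (2.53-fold), and the histone h2ax 2041 in HCD and 903 in control (2.24-fold). The base excision enzyme ogg1 (−1.01) and the polymerase rev1 (−1.10) fell, but with cyclic loess both stood inside 2-fold (−0.91 and −0.77). Of 17 histone genes h2ax alone passed.

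The enzymes of cholesterol synthesis were higher in larvae that ate cholesterol. All 22 measured enzymes were above 0, 10 rose and none fell, and the median was 0.98. Squalene epoxidase (sqlea) read 696 on the HCD array and 123 on the control array (5.62-fold), and lanosterol synthase (lss), the following step, 404 in HCD and 74.3 in control (5.4-fold). By the brightest probe of each gene these 2 enzymes stood out from the rest, but each rests on 1 probe. Single probes of hmgcra and cyp51 reached log2 differences of 2.096 and 1.775. The rate-limiting reductase hmgcra read 3415 in HCD and 1423 in control (2.38-fold, although 1 of its 3 probes stood at 0.25), and hmgcs1, one step earlier, 7530.1 in HCD and 3436 in control (2.18-fold, all 4 probes past 2-fold). Later steps that rose were msmo1 (2.75-fold), sc5d (2.5-fold), ebp (2.17-fold), and hsd17b7 (2.0-fold), and earlier ones mvda (2.62-fold, with 1 of its 3 probes at −0.03) and fdps (2.09-fold). The enzymes that changed least were hmgcrb (0.19), pmvk (0.20), idi1 (0.25), and fdft1 (0.28), so the higher steps were spread along the pathway and not gathered at either end. The enzyme cyp51 was just short of the threshold (4123 in HCD and 2061 in control, 0.99), with 3 of its 4 probes past 2-fold. On the BBR array sqlea read 131, lss 132, hmgcra 1217, and cyp51 1102.

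**Figure D4:**
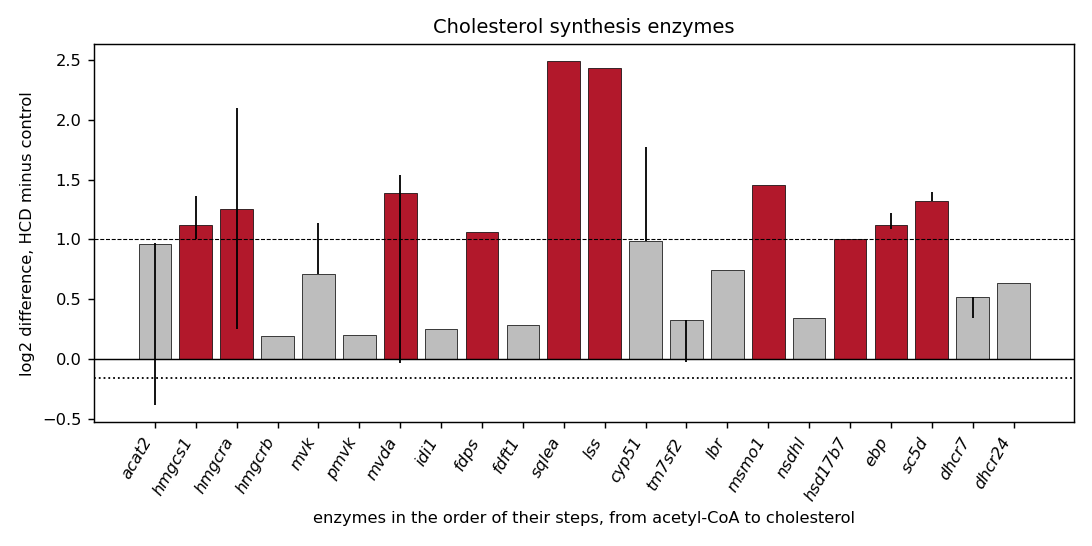
Bars give the log2 difference (HCD minus control) of each of the 22 cholesterol synthesis enzymes, by its brightest probe, in the order of their steps. Red bars (10) passed 2-fold (dashed line), black lines span the probes of a gene where it has several, and the dotted line is the median of all genes; sqlea and lss reach 2.49 and 2.43 in the middle of the pathway.

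None of 10 genes of sterol sensing and uptake passed 2-fold (median −0.11). The transcription factor srebf2 read 11998 on the HCD array and 9464 on the control array (0.33), and the low density lipoprotein receptor ldlra 419 in HCD and 484 in control (−0.22). The sterol sensor insig1, which holds SREBP2 in the endoplasmic reticulum and is itself an SREBP2 target in mammals, read 1787 in HCD and 3468 in control (−0.97), on the opposite side to the enzymes. Its brightest probe was just short of the threshold, and the other 2 were past it.

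Genes of cholesterol export and oxysterols moved both ways, with 2 of 17 higher and 3 lower (median −0.21). The enzyme ch25h, which makes 25-hydroxycholesterol and is induced in mammalian macrophages, read 2161 on the HCD array and 288 on the control array, and its 3 probes lay between 2.83 and 3.15. Its relative ch25hl1.1 went the other way, with 941 in HCD and 3176 in control (−1.76). The genes abcg1, pltp, abcg5, and abcg8 are LXR targets in mammals, and none of these rose. LXR targets as a set were not tested. The export pump abcg1 read 186 in HCD and 487 in control (−1.40, all 3 probes lower), the phospholipid transfer protein pltp 1199.5 in HCD and 4578 in control (−1.94), and the sterol transporters abcg5 and abcg8 stood at −0.16 and −0.61. Of 13 bile acid genes the 12-alpha-hydroxylase cyp8b1.1 rose (1045 in HCD and 390.3 in control, 2.66-fold), and nr0b2a, the counterpart of the repressor SHP, fell (4155 in HCD and 8388 in control, −1.02). The rate-limiting cyp7a1 read 202 in HCD and 177 in control (0.18), and 610.4 on the BBR array.

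The lipid droplet coat protein plin2 read 1496 on the HCD array and 276 on the control array (5.37-fold, with both probes past 2-fold). It and g0s2 were the only 2 of 17 lipid droplet genes to rise (median 0.15). The phosphatidate phosphatase lpin1a, which makes the precursor of triglyceride, fell on all 3 probes, with 2068 in HCD and 7068 in control (−1.78), and the last enzyme of the path, dgat2, stood at −0.57. Lipoprotein lipase (lpla), which releases fatty acids from circulating particles, read 1845 in HCD and 4659.8 in control (−1.35) and was the only 1 of 15 lipases and lipoprotein receptors to pass. Of 12 apolipoprotein genes apoc4 rose (2792 in HCD and 717 in control, 3.87-fold), while apoa1a stood at −0.09, apoeb at −0.19, and the assembly protein mttp at 0.63.

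Fatty acid oxidation leaned upward, with 28 of 32 genes above 0, 3 higher, and none lower (median 0.58). They were the trifunctional subunit hadhaa (5750.0 in HCD and 2179 in control, 2.62-fold), decr1 (2.34-fold), and the peroxisomal thiolase acaa1 (2.12-fold), with all probes of each higher in HCD. The entry enzyme cpt1aa stood at 0.06 and the receptor pparab at −0.61. Of 19 genes for fatty acid synthesis and desaturation 3 rose and 1, acss2l, fell (−1.12), a call that is lost with cyclic loess. The desaturase fads2, which acts on polyunsaturated fatty acids, read 25815 in HCD and 12008 in control (2.13-fold), and elovl1a and hsd17b12a were 2.39-fold and 2.18-fold higher. Acetyl-CoA carboxylase (acaca) and stearoyl-CoA desaturase (scd) stood at −0.02 and −0.52. Of 11 fatty acid binding proteins fabp4b rose (2.37-fold).

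Of 32 genes for endoplasmic reticulum stress 6 rose and none fell (median 0.56), among them dnajb9b (663 on the HCD array and 252 on the control array, 2.61-fold), the disulfide isomerase pdia4 (10403 in HCD and 4643 in control, 2.23-fold), and manf (2.19-fold). The central chaperone hspa5 stood at 0.50 on its brightest probe, the lowest of 6, of which 3 were past 2-fold (up to 1.49). The factor xbp1 stood at 0.37, and ddit3, the death-promoting factor of prolonged stress, at −0.61 and on its other probe at −1.05. Of 34 heat shock genes only hspb1 rose (2.0-fold), 2.94% of the list against 3.69% of all genes. None fell, and the list median was −0.06. In antioxidant defence 5 of 51 genes rose (9.80%, against 3.69% of all genes) and 2 fell (3.92%, against 4.07%), with a median of 0.11. Both haem oxygenase genes rose, hmox1a with 3459.8 in HCD and 1227 in control (2.8-fold) and hmox1b with 7677 in HCD and 2826 in control (2.7-fold), and prdx1 was 2.01-fold higher. Also higher were gsta.2 (2.37-fold) and gpx7 (2.18-fold, with its other probe at 0.74). The list members nqo1, gclc, and sod1 stood at 0.11, 0.10, and 0.24. The members gsr and cat stood at 0.27 and 0.43 on their brightest probes, and each had a probe past 2-fold (1.05 and 1.12). The genes that fell were ggt1a (−1.28) and chac1, which breaks down glutathione (9004 in HCD and 23434 in control, −1.39).

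Of 33 iron and haem genes 3 rose (9.09%, against 3.69% of all genes) and 1 fell (3.03%, against 4.07%). All 3 that rose are steps of haem synthesis: cpox (2.16-fold), urod (2.15-fold), and hmbsb (2.0-fold). Erythrocyte genes rose beside them, with the embryonic globins hbae4 (2074 on the HCD array and 656 on the control array, 3.14-fold) and hbbe3 (2.16-fold) and the anion exchanger slc4a1a (2084 in HCD and 716 in control, 2.89-fold), while the haem enzyme alas2 stood at −0.03 on its brightest probe and the adult globin hbba1 at −0.20. The 4 alas2 probes ran up to 1.75, so its level is not settled. The part of erythrocytes in the haem genes was not tested. The iron-sulfur gene isca1 fell (−1.28), and the iron hormone hamp stood at −0.91. Of 32 retinoid genes 4 rose and none fell. The saturase retsat.1 read 1513 in HCD and 282 in control (5.33-fold, although its other probe stood at 0.62), the carotenoid oxygenase bco2b 247 in HCD and 89.3 in control (2.74-fold), and the retinol carrier rbp2b 22197 in HCD and 9971 in control (2.21-fold).

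Of 23 genes for growth hormone, insulin, and IGF none rose and 3 fell (median −0.37, or −0.19 with cyclic loess, against −0.05 for all genes). The insulin signal adaptor irs2a read 56.5 on the HCD array and 149.6 on the control array (−1.42), and the growth hormone receptor ghrb 654 in HCD and 1542 in control (−1.25). The receptor insrb (−1.16) and the factor foxo1a (−1.06), which drives fasting genes in mammals, fell with the main scaling but stood at −0.88 and −0.74 with cyclic loess. The starvation marker igfbp1b was just short of the threshold (16407 in HCD and 31064 in control, −0.93), and its paralog igfbp1a stood at −0.37. The growth factor igf1 stood at −0.55 and on its other probe at 0.65, so its direction is not settled. In the muscle of starved mammals the ubiquitin ligase fbxo32 is switched on, and here it read 1129.9 in HCD and 5671 in control (−2.34). The groups differed in feed and cholesterol at once, and the part of the amount of feed in these genes was not tested. The hormone-responsive factor klf9 read 2765 in HCD and 9259.7 in control (−1.75), 1 of 36 immediate early genes to fall, while atf3 alone of that list rose (3152 in HCD and 698 in control, 4.48-fold). The gluconeogenic pck1 stood at −0.58 and the glycolytic pklr at −0.72, although 4 of the 6 pklr probes were past 2-fold lower (down to −1.53). Of 45 genes of these paths only ldhba passed on its brightest probe (−1.04, with the other at −0.58).

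Of 49 genes for amino acid breakdown 3 rose (6.12%, against 3.69% of all genes) and 2 fell (4.08%, against 4.07% of all genes), with a median of −0.10. The urea cycle enzymes ass1 (749 on the HCD array and 278 on the control array, 2.68-fold) and asl (2.58-fold, with its other probe at 0.62) were among those that rose. The genes that fell were arg2 (−1.16) and the glycine enzyme gldc (−1.37). Of 27 transport and synthesis genes slc7a8a fell (−1.32), 3.70% of the list against 4.07% of all genes. Of 35 clock genes none rose and cry3b (−1.10) and dbpb (−1.01) fell (5.71%, against 4.07% of all genes), with a list median of −0.43. Both were at low intensity, and neither call stood with cyclic loess (−0.87 and −0.69). All 11 genes of the aryl hydrocarbon receptor lay below 0 (median −0.70, against −0.16 for all genes). The receptor repressor ahrra read 3593 in HCD and 9401 in control (−1.40, with its other probe at −0.87) and was the only one to pass on its brightest probe. The target cyp1a read 14692 in HCD and 21406 in control (−0.55), while its other 2 probes were past 2-fold lower (down to −1.21).

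Among the named genes that fell most, several lie outside liver biology. The synaptic adhesion gene nlgn3a read 41.6 on the HCD array, 53.6 on the BBR array, and 389 on the control array (−3.23), and the adenylate kinase ak5 read 90.3 in HCD, 129.9 in BBR, and 531 in control (−2.57). The uncharacterised zgc:162509 stood at −3.09 on its brighter probe and at 0.46 on the other, so its direction is not settled. The autophagy-related calcoco1b read 332 on the HCD array and 1511 on the control array (−2.19), and si:ch211-276k2.1 read 649 in HCD and 4434 in control (−2.78). The ephrin efnb1 and the glutamate transporter slc17a6a were well above background on the control array but not on the HCD array, at least 4.79-fold and 3.91-fold lower. The ammonium transporter rhcga fell on all 3 probes (1777 in HCD and 4722 in control, −1.42), and so did fut9d (−1.47).

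The secretory calcium-binding phosphoproteins, which build the mineral of teeth and bone, changed in 5 of 10 genes. The genes scpp9 (507 on the HCD array and 3119 on the control array, −2.63), odam (512 in HCD and 2550.1 in control, −2.33), and scpp5 (2959 in HCD and 8110.5 in control, −1.47) fell. Their relatives scpp7 (1666 in HCD and 215 in control, 7.71-fold) and enamelin (enam, 6303 in HCD and 1709 in control, 3.66-fold) rose. A set of cathepsin L-like genes also fell together: ctslb (86.6 in HCD and 473 in control, −2.46), si:dkey-26g8.5 (−2.25), wu:fa26c03 (−2.16), and MGC174155 (−1.94, all 5 probes lower), which neighbour each other in assembly GRCz12tu. Near copies of one gene can share signal on an array, so whether these are separate measurements is not known. Of 14 cathepsins otherwise only ctsk passed (2.18-fold higher).

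None of 74 cytosolic ribosomal protein genes and none of 74 genes of the respiratory chain and ATP synthase passed 2-fold, with medians of −0.22 and 0.05. Of 29 liver transcription factors hnf4b rose (1.06) and foxo1a fell, each 3.45% of the list, against 3.69% and 4.07% of all genes. The factor hnf4a stood at −0.04 (its other probe at −1.03) and cebpa at 0.17. Of 31 cytochrome P450 genes of families 2, 3, and 4, cyp2x10.2 (1.02) and cyp2aa2 (1.01) rose, 6.45% against 3.69% of all genes. The other cyp2aa2 probe stood at −0.38, so the direction of that gene is not settled. In the same list cyp2u1 fell (−1.25), 3.23% against 4.07% of all genes. Of 45 mitochondrial carriers slc25a43 (−1.21) and slc25a23b (−2.16) fell, 4.44% of the list against 4.07% of all genes. None of 7 parathyroid hormone family genes passed. Of 35 matrix genes 3 rose (8.57%, against 3.69% of all genes) and 1 fell (2.86%, against 4.07%), with a median of 0.40. Collagen col1a1a read 14163 on the HCD array and 6995 on the control array (2.01-fold). Of 13 stellate cell and fibroblast markers col1a1a and lum (1.13) rose, whereas hand2 stood at 0.31 and acta2 at −0.18. The endothelial gene cdh5 (−1.07, a bound) and the yolk genes vtg2 (−1.10) and vtg6 (−1.02) fell at low intensity, and none of these 3 calls stood with cyclic loess.

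**Figure D5:**
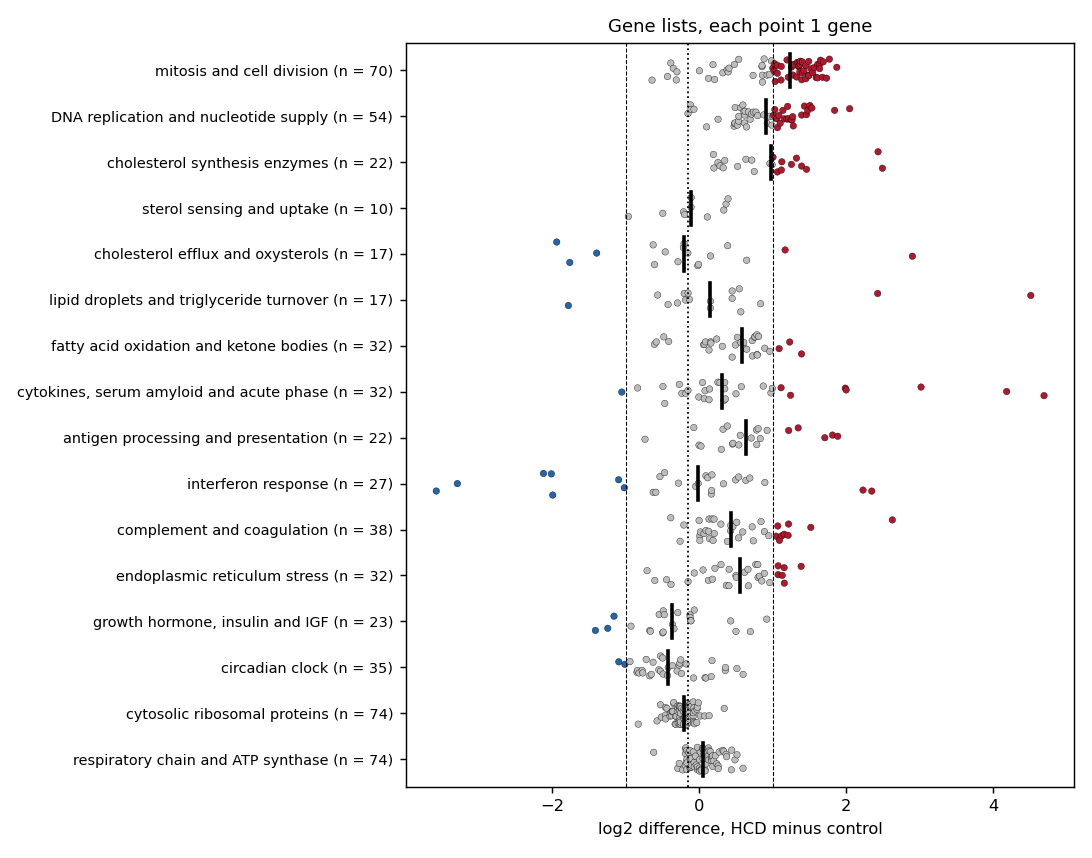
Each point is 1 gene, with its log2 difference (HCD minus control) on the horizontal axis and its list on the vertical axis; black ticks are list medians, the dotted line is the median of all genes (−0.16), and the dashed lines mark 2-fold. The medians of mitosis, replication, and cholesterol synthesis lie at 1.23, 0.90, and 0.98, with 6 mitosis and 4 replication genes below 0. The cytokine list holds a few genes beyond 2, and the interferon list has points on both sides.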

How the data were processed

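RNA labelled as liver was hybridized to single-colour Agilent zebrafish arrays. The authors deposited for each spot the processed intensity written by Feature Extraction 11.5.1.1 per the file headers (the submitters' notes name 10.7), background-subtracted, with flags for background and outliers. The authors also deposited log2 values, which equal the log2 processed intensity minus each array's 75th percentile within 0.002.

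Control spots were removed, spots of a probe were averaged as log2 intensity without outliers (2643 probes left out), and the 75th percentile over 43603 probes was subtracted. The probe with the highest mean signal stood for a gene. Where it was well above background on 1 array only, the other was floored at the lowest signal called well above background, which makes the fold change a lower bound. Of 28397 accessions 13553 matched a RefSeq gene table (GRCz12tu, names only). No test across samples exists with 1 array per group, and this number sets the limit on precision. Copies of a probe on one array differed with a median SD of 0.103 on the HCD array and 0.112 on the control array. Genes were called at 2-fold, and a list is described by its counts and median, over the members with a compared probe. The members and lists were chosen with earlier results of these data known. Genes were picked by rule among those with a gene name. They were the 12 largest differences well above background on both arrays, 6 largest bounds, and 5 with every probe past 2-fold, in each direction. Added to them were 4 members a direction of each list with its key members. Quantile normalization, cyclic loess (3 iterations), and normexp (offset 50, on median intensities) came from limma 3.58.1 in R 4.3.3, and the rest from Python 3.11.15 with pandas 2.3.3 and numpy 2.4.6. The calling step was tested on simulated data, with changes past 2-fold planted in probes that were not dim. Each probe stood there for its own gene. That simulation did not cover the floor, dim probes, or the choice of a probe for a gene.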

Additional observations from a re-analysis of the deposited data

How the results depend on the processing

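Of the 184 named genes past 2-fold, every one that could be compared kept its direction under each alternative, except mpx with outlier spots kept, which then took another probe at −0.89. With cyclic loess 171 of them and with normexp 134 stayed past 2-fold. The counts of higher and lower genes, 907 and 1000, became 601 and 308 with normexp, which raises low values and shrinks their differences. The lower genes became 526 with quantile normalization, 496 with cyclic loess, and 1731 with no filter on background and no floor, which adds dim genes. At 1.5-fold 2339 genes were higher and 4368 lower, and at 3-fold 258 and 147. Under the other alternatives (each array's median, detected probes only for the percentile or the genes, outlier spots kept, probes counted singly or averaged, and the authors' values) both counts stayed within 1.5 times. The list medians moved by less than the spread between probes in 609 of 610 comparisons, the exception being the yolk genes with cyclic loess. No paired analysis was possible because each group has 1 array, and the slide could not be a block. Signal near background limits the lower calls: 171 of 1000 are bounds.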

Other observations

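Called genes that lie next to each other in assembly GRCz12tu were looked for after the values were seen, as runs of at least 3 neighbouring compared genes called in one direction. There were 18 such runs. Higher in HCD larvae were the immunoproteasome genes psmb13a, psmb12, and psmb9a with tap2a, the genes ifng1r, il26, and il22, the genes glod5, irg1l, and zgc:174917, and the genes plekhs1.1, plekhs1.2, and plekhs1.3. The genes plekhs1.1 (6213 on the HCD array and 1799 on the control array), plekhs1.2 (2983 on the HCD array and 552 on the control array), and gig2i (3891 on the HCD array and 909 on the control array), with its neighbours gig2h and gig2g, belong to families of near copies, so they are not separate measurements for certain. Lower in HCD larvae were the cathepsin L-like genes, the jacalin-like genes jac6, jac9, and jac8, and the interferon-induced genes ifi27.2, ifi27.4, and ifi27.6, of which ifi27.6 read 2819 on the HCD array and 11982 on the control array. Whether the members of each of these lower runs are separate measurements is also not known.

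Beside fbxo32, other genes known from wasting muscle in mammals were lower in HCD larvae, and they were picked for their values. The ubiquitin ligase trim63a read 2316 on the HCD array and 9317 on the control array (−2.02, both probes past 2-fold). Its relatives trim55b and trim54 stood at −1.68 and −1.37. The translation inhibitor eif4ebp3 read 5396 on the HCD array and 12569 on the control array (−1.23), and the glucocorticoid-induced fkbp5 read 875 on the HCD array and 2052 on the control array (−1.24). None of the 26 measured markers of skeletal muscle passed 2-fold (median −0.18). The part of the amount of feed in these genes was not tested.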
